A study of Mus musculus with 16 samples.

Results

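Splicing regulators are RNA-binding proteins that choose which exons of a pre-mRNA are kept. The expression of 10 of them was followed while mouse embryonic stem (ES) cells differentiated in culture: Esrp1, Esrp2, Ptbp1, Ptbp2, Rbfox2, Mbnl1, Mbnl2, Nova1, Srrm4 and Celf2. The genes were picked by name, but with earlier results of these data known. They are 10 of the 24221 genes and 34 of the 33701 RefSeq transcripts used from the table. Embryoid bodies (EBs), aggregates in which ES cells start to differentiate, were grown from the R1 ES cell line for 4 days without Lif, the cytokine that keeps ES cells pluripotent. RNA was taken then, before retinoic acid (RA) was added (day 0), and again after 4 days in 2 μM RA (day 4). There were 2 biological replicates a day, and each of these 4 RNA samples was split into 4 vials, which gave 16 libraries. The vials received IVT mix 1, 2 or 3 of transcripts made in vitro, or none of them (mix 4), and the ERCC controls as mix 1 (with IVT mixes 1 and 3) or mix 2 (with mixes 2 and 4). All groups came from this 1 line and all were EBs, so there was no undifferentiated ES culture and no sorted neural population among them. There were also no untreated EBs of day 4, so RA and 4 more days of culture cannot be told apart. Where a value is given for an RNA sample, it is the mean of its 4 vials.

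The epithelial regulators Esrp1 and Esrp2 set the splice pattern of epithelial cells. Ptbp1 (PTB) represses neuronal exons in dividing cells, and its paralog Ptbp2 (nPTB) takes its place early in neuronal differentiation. One of the exons that PTBP1 represses lies in the Ptbp2 transcript itself, and without that exon the transcript is degraded. The muscleblind proteins Mbnl1 and Mbnl2 are low in pluripotent cells and favour the exons of differentiated cells. Rbfox2 binds the hexamer TGCATG and is widely expressed, Celf2 acts in brain, heart and lymphocytes, and Nova1 and Srrm4 (nSR100) are largely neuronal.

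Expression was measured as FPKM, fragments mapped to a transcript per unit of its length and of the depth of the library, which is a level per length. The number of fragments behind a value was not taken into account, and values are given without a counting error or a limit of detection. The libraries had summed FPKM of 411090 to 622888 and 20555 to 22156 RefSeq transcripts above 0. The vials with mixes 3 and 4 of day 0 replicate 2 stood apart from the other vials of the same RNA. The difference between the transcripts richest and poorest in GC, each as the log2 deviation from the mean of all libraries, was 2.43 to 2.67 in day 0 replicate 1. It was 1.94 and 1.12 in the mix 1 and mix 2 vials of day 0 replicate 2, but -2.26 and -1.84 in its mix 3 and mix 4 vials, beside -1.68 to -0.41 in the 8 libraries of day 4. By this measure the 2 vials lay outside the range of the other day 0 vials and next to day 4. The results on the 10 genes are therefore given with and without them.

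The state of the cells was read from marker lists. The counts of markers that rose or fell stand beside 16% of all genes called higher at day 4 and 14.5% called lower. Of 8 pluripotent cell markers, 7 fell, and their summed level was 247 and 185 FPKM at day 0, against 12.9 and 8.56 at day 4. Pou5f1 went from 87.3 and 37.2 to 1.03 and 0.69 FPKM and Nanog from 6.45 and 6.02 to 1.36 and 1.15. Of 7 epithelial markers 5 fell, among them Cdh1 (E-cadherin), from 24.5 and 18.2 to 1.89 and 2.44 FPKM. Of 6 endoderm markers 5 rose and none fell, with a sum of 17.6 and 16.7 FPKM at day 0, against 82.0 and 82.3 at day 4. Afp went from 0.0085 and 0.032 to 1.13 and 0.42 FPKM. Neural lists were mixed. Of 7 neural progenitor markers 1 rose and 2 fell (sum 31.6 and 30.0, then 26.1 and 27.4 FPKM), and of 7 neuron markers 2 rose and 3 fell (sum 29.8 and 17.2, then 11.2 and 10.7 FPKM). Tubb3, a tubulin of neurons, fell from 17.6 and 6.46 to 0.87 and 0.65 FPKM. Pax6 rose, but from 0.13 and 0.13 to only 0.42 and 0.32 FPKM. Dcx and Syt1, the neuron markers that rose and that are named after their values were seen, went from 0.0080 and 0.017 to 2.13 and 2.50 FPKM (limma adjusted p = 0.0046) and from 0.10 and 0.076 to 0.81 and 0.91 FPKM (adjusted p = 0.0073). With neural markers moving both ways, the 10 genes are called splicing regulators and not neural genes here. Of 7 mesenchymal markers 3 rose and 2 fell (sum 579 and 412, then 261 and 273 FPKM). Most of this sum was Vim (487 and 327, then 141 and 150 FPKM), while Zeb1, Twist1 and Snai2 rose. The sum of a list follows its most abundant genes. None of 6 muscle markers rose and 2 fell (9.55 and 5.86, then 4.65 and 3.43 FPKM), and none of 6 endothelial and blood markers rose and 2 fell (109 and 85.5, then 113 and 95.5 FPKM). The second day 0 value of each marker or sum averages over the vials that stood apart. In day 0 replicate 2, Pou5f1 averaged 63.0 FPKM in the mix 1 and mix 2 vials and 11.5 FPKM in the mix 3 and mix 4 vials. Nanog had 5.98 and 6.06 FPKM in these pairs. The epithelial sum was 685 and 165 FPKM in them, and the endoderm sum 16.8 and 16.5 FPKM. In bulk RNA, fewer cells of a type and less RNA per cell cannot be told apart. The part of these markers in the results was not tested.

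At the gene level, with the FPKM of a gene's transcripts summed, Mbnl1, Celf2, Ptbp2 and Mbnl2 rose and Esrp1 fell. The other 5 did not pass the test (limma on log2(FPKM + 0.1), 2 RNA samples against 2, adjusted p of at most 0.05 over 20542 genes). The 4 genes higher of 10 stand beside 16% of all genes called higher at day 4, and the 1 gene lower beside 14.5% called lower. The median log2 difference was 0.30 over the 10 genes and -0.03 over all genes tested. All 8 libraries of day 4 lay above all 8 of day 0 for 5 of the genes (Ptbp2, Rbfox2, Mbnl1, Mbnl2 and Celf2), beside 19.8% of all genes, and below them for 1 (Esrp1), beside 14.6%. In the other 4 genes the libraries of the days overlapped. Folds below are 2 to the power of the fitted difference and understate the change of low genes. With the repeat of the procedure as a block in the fit, which pairs the replicates of the days, 3 of the genes were lower in place of 1: Esrp2 and Ptbp1 then passed as well. In that fit 4 of the 10 were higher, and of all genes 22.5% were called higher and 29.1% lower.

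**Figure D1:**
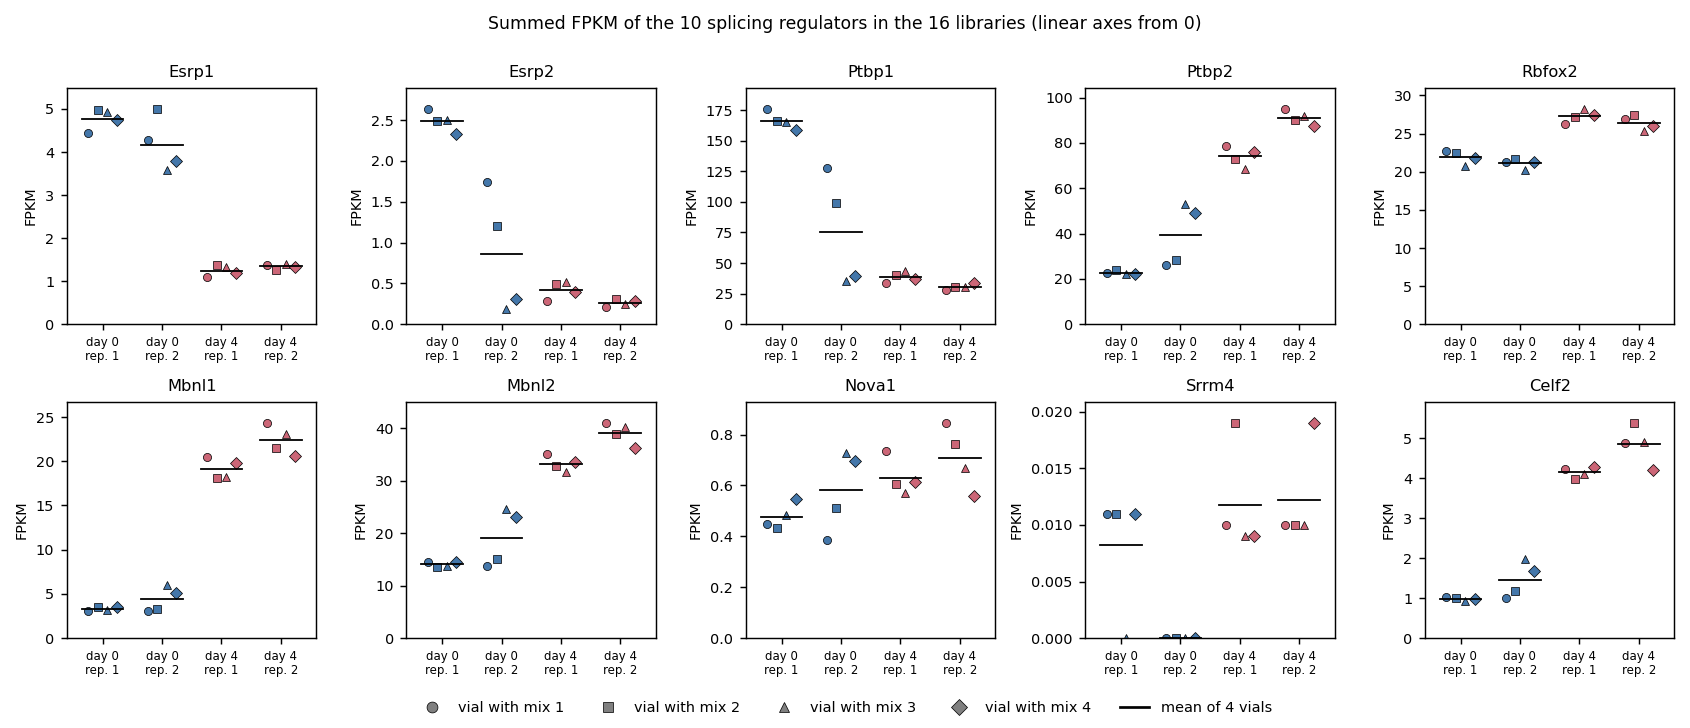
FPKM of each gene, summed over its RefSeq transcripts, in the 16 libraries. Blue points are day 0 and red points day 4, the marker shape gives the mix of the vial, and the line is the mean of the 4 vials of an RNA sample. Each panel has its own axis from 0. The mix 3 and mix 4 vials of day 0 replicate 2 (triangle and diamond) lie near the day 4 points for Esrp2 and Ptbp1 and part of the way towards them for Ptbp2, Mbnl1, Mbnl2 and Celf2, whereas the 16 points of Rbfox2 and Esrp1 separate by day.

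Ptbp1, the main repressor of neuronal exons, was the most abundant of the 10 genes at day 0, with 166 and 75.4 FPKM in the 2 replicates, and on day 4 it had 38.6 and 30.7 FPKM. The means were 121 ± 64.3 and 34.6 ± 5.58 FPKM (SD, n = 2). The 4 vials of day 0 replicate 1 lay between 159 and 176 FPKM. In replicate 2 the mix 1 and mix 2 vials had 127 and 99.2 FPKM, and the mix 3 and mix 4 vials 35.7 and 39.3 FPKM. The latter 2 values were inside the range of the 8 day 4 libraries, 28.3 to 43.2 FPKM. The fitted log2 difference was -1.70 (SE 0.44, limma adjusted p = 0.058), short of the threshold. It passed with the replicate block (adjusted p = 0.00028), after a correction for GC content (-0.95, adjusted p = 0.012) and with day 0 replicate 2 taken from its mix 1 and mix 2 vials (-1.99, SE 0.24, adjusted p = 0.0057). With replicate 2 taken from the mix 3 and mix 4 vials it was -1.2 (SE 0.85, adjusted p = 0.49).

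Ptbp2, the neuronal paralog, rose. It had 22.8 and 39.3 FPKM at day 0, and the day 4 values were 74.2 and 91.1 FPKM, a difference of 2.74-fold (log2 difference 1.46, SE 0.33, limma adjusted p = 0.043). All day 4 libraries, 68.7 to 94.8 FPKM, were above all of day 0. Within day 0 replicate 2 the first pair of vials had 26.3 and 28.5 FPKM and the second pair 53.2 and 49.2 FPKM, against 22.2 to 23.7 FPKM in replicate 1. Taken from the first pair, replicate 2 gave a log2 difference of 1.72 (adjusted p = 0.0033), and from the second pair 1.27 (adjusted p = 0.24). The call was also lost with median ratio scaling (adjusted p = 0.052), with a pseudocount of 1 (0.055) and in the limma fit without a variance trend (0.058). After the GC correction the log2 difference was 0.91 (adjusted p = 0.0036). The ratio of Ptbp2 to Ptbp1 was 0.129 to 0.143 in the vials of day 0 replicate 1 and 1.59 to 3.36 in those of day 4. In day 0 replicate 2 it was 0.207 and 0.287 in the vials with mixes 1 and 2 but 1.49 and 1.25 in those with mixes 3 and 4. The order of the paralogs was thus inverted at day 4 in every library, and also in these 2 vials of day 0. The ratios were not corrected for GC content.

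Ptbp1 has 3 transcripts in the table. The 2 most abundant differ at an exon that codes for part of the linker between RNA recognition motifs of the protein, and whose skipping is known to weaken the repressor. Ptbp1 lies on chromosome 10 from 79854432 to 79864435 (GRCm38, plus strand). The exon is printed because these 2 are separated by it, besides their first exon and 3′ end. It is at chr10:79860117-79860194 on the plus strand, is wholly coding, has 65.4% GC and 78 bases, a multiple of 3, and all its bases are in capitals:
Ptbp1 78-base exon: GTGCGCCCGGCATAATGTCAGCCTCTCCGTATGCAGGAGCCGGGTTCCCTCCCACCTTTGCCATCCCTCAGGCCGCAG

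The transcript with this exon, NM_001077363, had 76.5 to 92.9 FPKM in the vials of day 0 replicate 1 and 2.15 to 10.7 FPKM in the 8 libraries of day 4. NM_008956, which skips it, had 81.5 to 82.9 FPKM and 21.7 to 32.4 FPKM. The share of Ptbp1 FPKM in the transcript with the exon, which is not that of the exon alone, was 50.1% in day 0 replicate 1. It was 19% in day 4 replicate 1 and 14.4% in day 4 replicate 2. The 4 vials of day 0 replicate 2, which hold the same RNA, had 57.1, 32.3, 0.65 and 1.2 FPKM of the transcript with the exon. Its share was 39.5% over the first 2 of them and 2.47% over the last 2, below each of the 8 libraries of day 4 (7.06% to 24.7%). For NM_001077363 the log2 difference between the days was -2.92 (SE 0.74, limma adjusted p = 0.073), and -3.40 (adjusted p = 0.010) with replicate 2 from the mix 1 and mix 2 vials. With replicate 2 from the mix 3 and mix 4 vials the difference was -0.67 (SE 2.49, adjusted p = 0.89). For NM_008956 it was -1.19 (SE 0.29, adjusted p = 0.067). Both passed with the replicate block (adjusted p = 0.010 and 0.017). The third transcript, NM_001283013, fell (log2 difference -2.04, adjusted p = 0.035), but stayed under 1.3 FPKM in all libraries except 1, the mix 3 vial of day 0 replicate 2, where it had 3.23 FPKM. Without the mix 3 and mix 4 vials its adjusted p was 0.14.

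**Figure D2:**
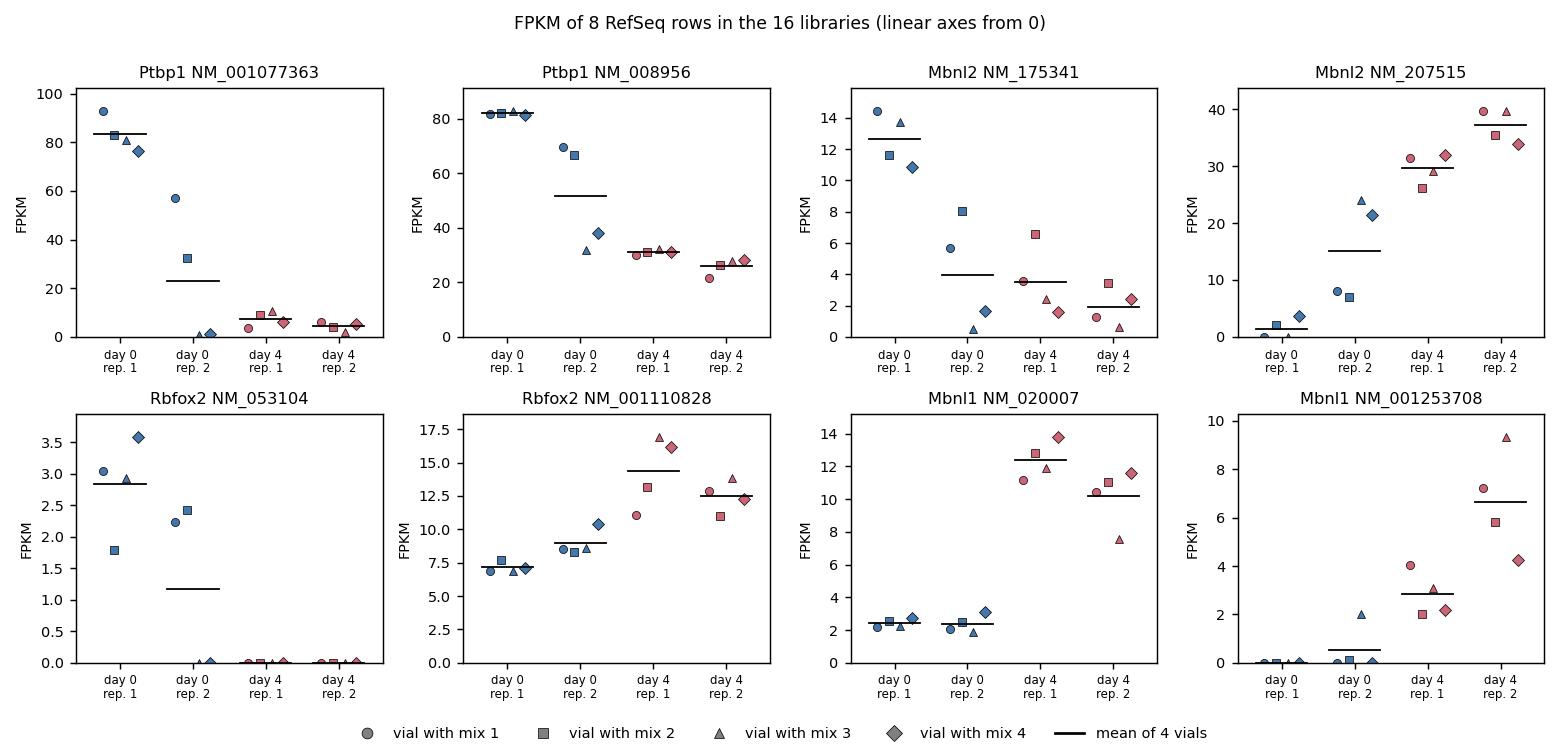
FPKM of 8 RefSeq transcripts of Ptbp1, Mbnl2, Rbfox2 and Mbnl1 in the 16 libraries. Colours, markers and lines are as in the plot of gene levels, and axes start at 0. Ptbp1 NM_001077363, Rbfox2 NM_053104 and both Mbnl2 transcripts differ between the vials of day 0 replicate 2 in the same direction as between the days, while Mbnl1 NM_020007 separates by day with all vials of day 0 between 1.89 and 3.13 FPKM.

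Of the epithelial regulators, Esrp1 fell 3.27-fold. It had 4.77 and 4.16 FPKM at day 0, and the day 4 values were 1.25 and 1.34 FPKM, with a log2 difference of -1.71 (SE 0.22, limma adjusted p = 0.015). The vials lay between 3.59 and 4.99 FPKM at day 0 and between 1.09 and 1.40 FPKM at day 4, without overlap. In day 0 replicate 2 the vials with mixes 3 and 4 had 3.59 and 3.79 FPKM. Those with mixes 1 and 2 had 4.28 and 4.99 FPKM. The former were thus lower, but closer to the other day 0 vials than to day 4. With replicate 2 from the mix 1 and mix 2 vials the log2 difference was -1.78 (adjusted p = 0.0020). From the mix 3 and mix 4 vials it was -1.62 (adjusted p = 0.088). The GC correction left the difference at -1.77 (adjusted p = 0.0013). Nearly all of the level came from NM_194055, which fell (log2 difference -1.74, adjusted p = 0.028), whereas NM_001290383 was at most 0.89 FPKM in any library.

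Esrp2, the second epithelial regulator, had 2.49 and 0.86 FPKM at day 0, and the day 4 values were 0.43 and 0.26 FPKM. Its log2 difference of -1.85 was the largest fitted fall of the 10 genes before the GC correction, yet with an SE of 0.59 it did not pass (limma adjusted p = 0.086). The vials of day 0 replicate 1 had 2.34 to 2.63 FPKM. Those of replicate 2 had 1.74 and 1.21 FPKM with mixes 1 and 2 but 0.19 and 0.31 FPKM with mixes 3 and 4, next to those of day 4 (0.21 to 0.52 FPKM). With the replicate block the adjusted p was 0.0017, and from the mix 1 and mix 2 vials the difference was -2.21 (adjusted p = 0.011). From the mix 3 and mix 4 vials it was -1.12 (adjusted p = 0.61), and after the GC correction -0.85 (adjusted p = 0.068). Whether Esrp1 and Esrp2 differed in their change between the days was not tested.

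The muscleblind genes rose. Mbnl1 had the largest fitted rise of the 10, 5.32-fold, from 3.31 and 4.39 FPKM to 19.1 and 22.4 FPKM (log2 difference 2.41, SE 0.22, limma adjusted p = 0.0084). All vials of day 0 were at or below 6.06 FPKM and all of day 4 at or above 18.1 FPKM. The mix 3 and mix 4 vials of day 0 replicate 2 had 6.06 and 5.14 FPKM beside 3.04 to 3.52 FPKM in the other 6 vials of day 0. The difference was 2.64 (adjusted p = 0.0013) from the mix 1 and mix 2 vials and 2.24 (adjusted p = 0.062) from the mix 3 and mix 4 vials, and 1.75 (adjusted p = 0.0013) after the GC correction.

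Of the 6 Mbnl1 transcripts, 2 were at 0 in all 16 libraries. The most abundant, NM_020007, rose from 2.45 and 2.39 FPKM to 12.4 and 10.2 FPKM (log2 difference 2.17, SE 0.20, limma adjusted p = 0.017). Its day 0 vials did not separate by mix, 1.89 and 3.13 FPKM with mixes 3 and 4 of replicate 2 against 2.08 to 2.77 FPKM in the other 6. NM_001253711 rose as well, from 0.86 and 1.38 to 3.88 and 5.08 FPKM (adjusted p = 0.042). NM_001253708 begins at another first exon, which has 39.8% GC in the annotation against 75.1% for that of NM_020007. It was at 0 in 6 of the 8 day 0 vials and had 2.00 to 9.34 FPKM in every day 4 library, but its log2 difference of 4.15 had an SE of 1.1 and did not pass (adjusted p = 0.077). The day 0 level that it had lay almost wholly in 1 vial, the mix 3 vial of replicate 2, at 2.02 FPKM. Without the mix 3 and mix 4 vials of that RNA the difference was 5.19 (adjusted p = 0.0071). With replicate 2 from its mix 3 and mix 4 vials it was 3.74 (SE 1.48, adjusted p = 0.30).

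Mbnl2 rose 2.19-fold, from 14.1 and 19.1 FPKM to 33.2 and 39.1 FPKM (log2 difference 1.13, SE 0.22, limma adjusted p = 0.033). With day 0 replicate 2 from its mix 1 and mix 2 vials the difference was 1.335 (adjusted p = 0.0026). From its mix 3 and mix 4 vials it was 0.97 (adjusted p = 0.21), and after the GC correction 0.73 (adjusted p = 0.012). The vials of day 0 had 13.7 to 15.01 FPKM apart from the mix 3 and mix 4 vials of replicate 2, with 24.6 and 23.1 FPKM, and the 8 libraries of day 4 had 31.6 to 41.0 FPKM. Its 2 transcripts differ in the paired annotation at the 3′ end (4552 and 2390 bases in all) and by an exon that belongs to the region needed for nuclear localisation of muscleblind proteins, and that is known to be included in embryonic tissue and skipped in adult tissue. The gene is on chromosome 14 from 120275652 to 120431698 (GRCm38, plus strand). The exon, at chr14:120395712-120395765 on the plus strand, is wholly coding, has 53.7% GC and 54 bases, a multiple of 3, and is printed in capitals throughout as the coding sequence that separates the transcripts:
Mbnl2 54-base exon: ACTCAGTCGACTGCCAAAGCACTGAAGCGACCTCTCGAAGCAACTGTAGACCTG

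The transcript with the exon, NM_175341, had 14.4, 11.6, 13.7 and 10.9 FPKM in the vials of day 0 replicate 1 and the one without it, NM_207515, had 0, 2.05, 0 and 3.68 FPKM. At day 4 the first had 0.63 to 6.56 FPKM and the second 26.2 to 39.7 FPKM. The share of Mbnl2 in the transcript with the exon, which is not that of the exon alone, was 89.8% in day 0 replicate 1 and 10.6% and 4.96% in the replicates of day 4. In day 0 replicate 2 it was 47.7% over the vials with mixes 1 and 2 and 4.54% over those with mixes 3 and 4. The latter 2 vials had 0.51 and 1.66 FPKM of NM_175341 and 24.1 and 21.5 FPKM of NM_207515, next to the values of day 4. Neither transcript passed the test between the days: the log2 difference was -1.40 (SE 0.70, limma adjusted p = 0.22) for NM_175341 and 2.79 (SE 1.23, adjusted p = 0.18) for NM_207515. With the replicate block both passed (adjusted p = 0.031 and 0.049).

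**Figure D3:**
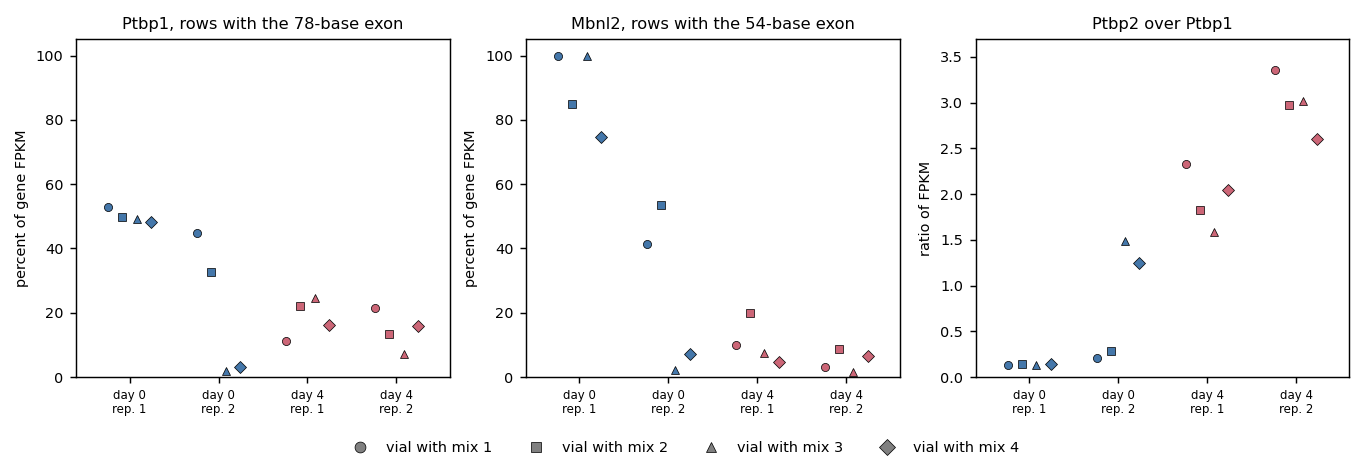
Share of the gene's FPKM in transcripts with the alternative exon for Ptbp1 and Mbnl2 (percent, left and middle) and the ratio of Ptbp2 to Ptbp1 FPKM (right) in the 16 libraries. Blue is day 0, red day 4, and the marker shape gives the mix. In all 3 panels the mix 3 and mix 4 vials of day 0 replicate 2 lie apart from the other day 0 vials, with a Ptbp1 share of 2.47% and an Mbnl2 share of 4.54% over the pair and ratios of 1.49 and 1.25.

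Rbfox2 had the smallest fitted difference of the 8 genes with a mean above 1 FPKM. Its sum was 21.9 and 21.1 FPKM at day 0, and the day 4 values were 27.3 and 26.4 FPKM, and its day 0 vials did not separate by mix (20.3 to 22.7 FPKM, with 20.3 and 21.2 FPKM in the vials with mixes 3 and 4 of replicate 2). All day 4 libraries were above them, at 25.3 to 28.2 FPKM. The log2 difference of 0.32 (SE 0.14) did not pass in the limma fit (adjusted p = 0.15). It passed with replicate 2 from the mix 1 and mix 2 vials (0.30, adjusted p = 0.025) and after the GC correction (0.39, adjusted p = 0.045).

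The 9 Rbfox2 transcripts did not move together. The gene, on chromosome 15 from 77078990 to 77308434 (GRCm38, minus strand), has 2 first exons that are 153116 bases apart in the paired annotation. From the upstream start, with 3 of the 9 transcripts, NM_053104 and NM_001110827 were paired with the same annotated transcript, whose first exon has 565 bases and 75.4% GC. NM_053104 had 1.80 to 3.59 FPKM and NM_001110827 1.88 to 3.13 FPKM in the vials of day 0 replicate 1. The mix 1 and mix 2 vials of replicate 2 had 2.23 and 2.43 FPKM of the first and 1.61 and 2.03 FPKM of the second. Both were listed at 0 in the mix 3 and mix 4 vials of day 0 replicate 2 and in all 8 libraries of day 4. They passed the test between the days (limma adjusted p = 0.023 and 0.030, and 0.0036 and 0.0040 without the mix 3 and mix 4 vials), with no fold given against a group at 0. With day 0 replicate 2 from its mix 3 and mix 4 vials neither passed (adjusted p = 0.575 for both). The third, NM_175387, was above 0 in all 16 libraries (0.51 to 2.16 FPKM). Together the 3 made up 30.3% of Rbfox2 in day 0 replicate 1, 25.5% and 8.24% in the first and second pair of vials of day 0 replicate 2, and 5.37% and 5.12% at day 4.

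Most of the Rbfox2 level came from the downstream start. NM_001110828 had 7.16 and 8.95 FPKM at day 0, and the day 4 values were 14.3 and 12.5 FPKM (log2 difference 0.73, SE 0.20, limma adjusted p = 0.081), and NM_001110830 had 6.97 and 6.90 FPKM, then 9.08 and 10.0 FPKM (0.45, SE 0.16, adjusted p = 0.13). NM_001110829 was called higher (adjusted p = 0.047), but it was listed at 0 in 12 of the 16 libraries and its 3 day 4 values above 0 were 2.94, 1.62 and 2.30 FPKM. With only the mix 4 vials its log2 difference was -1.31 (adjusted p = 0.59). In the paired annotation 5 of the 9 transcripts carry a brain-type exon, 2 carry a muscle-type exon in its place, and NM_175387 and NM_001286417 carry neither. Both are on the minus strand and wholly coding, at chr15:77094451-77094490 and chr15:77091812-77091854, and are printed in capitals because the question of which type EBs use rests on them:
Rbfox2 40-base exon: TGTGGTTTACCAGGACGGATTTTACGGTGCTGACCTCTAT
Rbfox2 43-base exon: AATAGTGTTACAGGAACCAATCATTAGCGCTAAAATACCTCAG

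Of the FPKM in transcripts with 1 of these exons, the 40-base brain-type exon held 94.6% and 91.7% in the replicates of day 0 and 90.9% and 90.0% in those of day 4. Single libraries lay between 88.1% and 95.9% at day 0 and between 81.5% and 95.7% at day 4, so the days overlapped. The brain-type exon thus held most of this level on both days. NM_053104 and NM_001110827 are counted in the share, and as both were paired with 1 annotated transcript their exon content is less certain.

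Celf2 rose 3.53-fold, from 0.99 and 1.46 FPKM to 4.16 and 4.85 FPKM (log2 difference 1.82, SE 0.29, limma adjusted p = 0.022). The day 0 vials had 0.94 to 1.17 FPKM, apart from 1.98 and 1.68 FPKM in the mix 3 and mix 4 vials of replicate 2, and day 4 had 3.99 to 5.39 FPKM. The difference was 2.02 (adjusted p = 0.0023) from the mix 1 and mix 2 vials, 1.67 (adjusted p = 0.13) from the mix 3 and mix 4 vials and 1.60 (adjusted p = 0.0021) after the GC correction. Of its 8 transcripts, NM_001110229 rose from 0.49 and 0.46 to 1.96 and 2.49 FPKM (log2 difference 2.00, adjusted p = 0.032). NM_001110230, paired with the same annotated transcript, was at 0 in all 8 libraries of day 0 and above 0 in 7 of 8 at day 4, up to 1.73 FPKM (adjusted p = 0.016). The other 6 did not pass.

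The 2 neuronal regulators stayed low. Nova1 had 0.48 and 0.58 FPKM at day 0, and the day 4 values were 0.63 and 0.71 FPKM, with overlapping libraries (0.39 to 0.73 and 0.56 to 0.84 FPKM) and a log2 difference of 0.29 (SE 0.24, limma adjusted p = 0.39). After the GC correction the difference was -0.35, so its direction was not settled. Srrm4, which drives the microexons of neurons, was at most 0.019 FPKM in any of the 16 libraries and at 0 in 5 of them, all from day 0. Its log2 difference of 0.11 had an adjusted p of 0.26.

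In order of level per length at day 0, Ptbp1 was followed by Ptbp2, Rbfox2, Mbnl2, Esrp1, Mbnl1, Esrp2, Celf2, Nova1 and Srrm4. Both replicates of a gene were above both of the next, except between Esrp1 and Mbnl1 and between Esrp2 and Celf2. At day 4 the order was Ptbp2, Mbnl2, Ptbp1, Rbfox2, Mbnl1, Celf2, Esrp1, Nova1, Esrp2 and Srrm4, and only Mbnl2 and Ptbp1 did not separate.

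**Figure D4:**
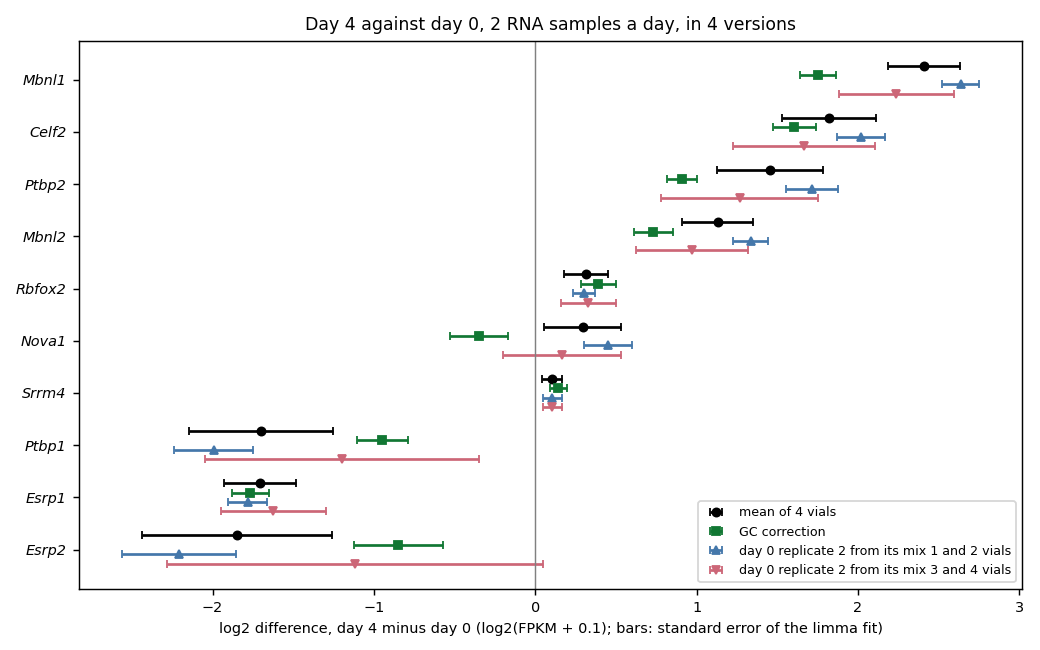
Log2 difference between day 4 and day 0 for each gene, on log2(FPKM + 0.1), with bars for the standard error of the limma fit over 2 RNA samples a day. Black is the mean of 4 vials, green the GC-corrected values, blue and red day 0 replicate 2 from its mix 1 and 2 or mix 3 and 4 vials. Esrp1 keeps about the same value in all 4 (-1.62 to -1.78), while the GC correction takes Ptbp1 from -1.70 to -0.95 and Nova1 from 0.29 to -0.35.

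The difference between the vials of 1 RNA can be set beside the difference between the days in the other replicate, since the 2 share no library. In day 0 replicate 2, the mix 3 and mix 4 vials differed from the mix 1 and mix 2 vials by -2.18 for Esrp2, -1.59 for Ptbp1 and -0.32 for Esrp1 on the log2 scale. In replicate 1 the difference from day 0 to day 4 was -2.30, -2.11 and -1.85 in the same order. For Ptbp2, Mbnl1, Mbnl2 and Celf2 the vials differed by 0.90, 0.80, 0.73 and 0.71 and the days by 1.70, 2.50, 1.23 and 1.97. For Rbfox2 they were -0.05 and 0.31. The sign was the same in 8 of the 10 genes. Across the 10 genes Pearson's r was 0.898, and it was 0.628 over the 11602 genes of all that averaged 1 FPKM or more, given as a description since genes of 1 library are not independent. The same pairs of mixes were also compared in the other 3 RNA samples. For all of the genes but Nova1 the differences were at most 0.19 in size. For Nova1 they were 0.19, -0.16 and -0.34 in day 0 replicate 1, day 4 replicate 1 and day 4 replicate 2. The GC profile of the libraries moves with these values, and its part in them was not tested.

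**Figure D5:**
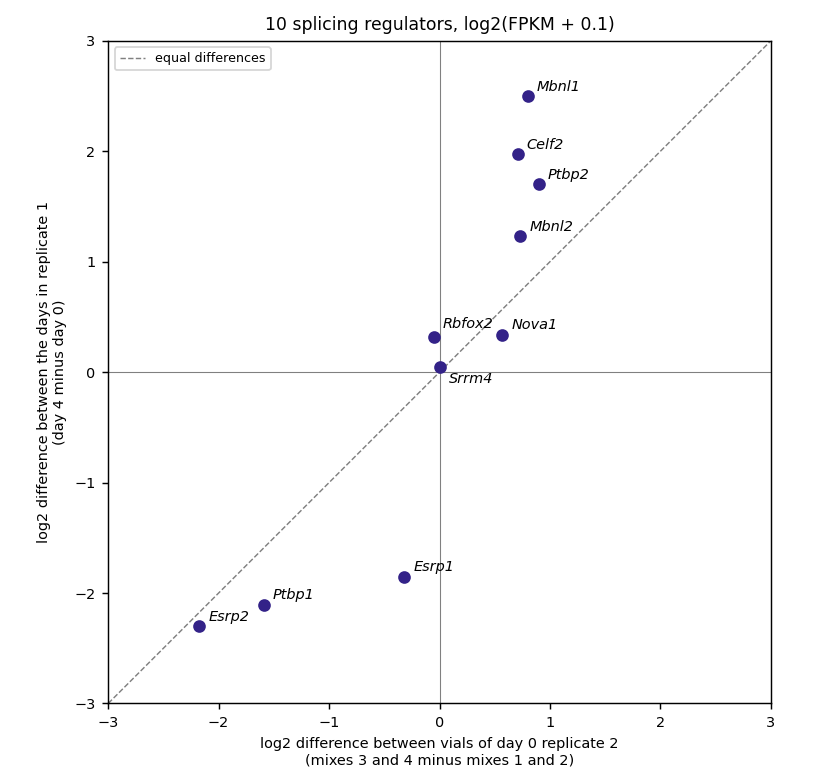
For each of the 10 genes, the log2 difference between the vials of day 0 replicate 2 (mixes 3 and 4 minus mixes 1 and 2, x axis) against the log2 difference between the days in replicate 1 (y axis), both on log2(FPKM + 0.1). The dashed line marks equal differences. Esrp2 lies close to the line, at -2.18 and -2.30, whereas Esrp1 lies far from it, at -0.32 and -1.85.

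The share of each transcript in its gene was compared between the days for 7312 transcripts of genes with 2 or more transcripts. No share passed in the limma fit (0% of all transcripts, and none of the 25 tested from the 10 genes), while 2120 of all and 10 of the 25 had an unadjusted p of at most 0.05. With day 0 replicate 2 from the mix 1 and mix 2 vials 2279 passed (31.2%), among them 11 of the 25. For single transcripts of the 10 genes, 5 rose and 4 fell of the 31 that were above 0 somewhere, beside 10.2% of all transcripts called higher and 8.67% called lower. With the replicate block 8 rose and 8 fell, beside 14.7% and 20.9% of all transcripts. In the 12 comparisons between mixes within a day, which hold the same RNA in both arms, no transcript of the 10 genes was called in 348 tests (14 had an unadjusted p of at most 0.05), beside 0.0362% of all tests. The fit compares mixes over both replicates of a day, so a shift in the vials of 1 replicate counts there as spread.

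Other splicing genes were looked at in fixed lists. The counts called in all of these lists stand beside 16% of all genes called higher at day 4 and 14.5% called lower, unless another setting is named. Of 11 paralogs of the 10 genes, 1 rose and 3 fell (median log2 difference -0.02). Rbfox1, the neuronal and muscle member of its family, fell from 0.35 and 0.45 to 0.04 and 0.06 FPKM (limma adjusted p = 0.010), Rbfox3 (NeuN) rose from 0.06 and 0.03 to 0.42 and 0.28 FPKM (adjusted p = 0.018) and Celf5 fell from 0.40 and 0.22 to 0.04 and 0.04 FPKM (adjusted p = 0.027). These 3 stayed under 1 FPKM on both days, and Rbfox1 did not pass after the GC correction (adjusted p = 0.062).

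Of 17 other tissue-restricted splicing regulators tested, 3 rose and 5 fell (median 0.11). Rbm38, an RNA-binding protein of erythroid and epithelial cells, fell from 16.95 and 4.41 to 0.62 and 0.42 FPKM (adjusted p = 0.032), with 7.90 FPKM in the mix 1 and mix 2 vials and 0.93 FPKM in the mix 3 and mix 4 vials of day 0 replicate 2. Khdrbs2 (SLM1), expressed in the nervous system, rose from 0.03 and 0.02 to 1.17 and 1.61 FPKM (adjusted p = 0.0053). Rbm20, the cardiac regulator of titin splicing, fell from 3.05 and 1.88 to 0.39 and 0.29 FPKM (adjusted p = 0.017). Of 23 hnRNP proteins only Hnrnpr was called, higher, from 24.3 and 33.0 to 54.04 and 57.9 FPKM (adjusted p = 0.039), with a median of 0.19 over the list. Of 13 SR proteins none was called (0 with an unadjusted p of at most 0.05, median 0.15). With day 0 replicate 2 from the mix 1 and mix 2 vials, 6 SR proteins were higher and 3 lower, and 9 hnRNP proteins were higher and 4 lower, beside 27% of all genes called higher and 33.5% lower. After the GC correction no SR protein was higher and 4 were lower, and 1 hnRNP protein was higher and 4 lower, beside 27.9% and 24.8% of all genes.

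Among 11601 other genes with a mean of at least 1 FPKM, those with the pattern over the 4 RNA samples closest to Mbnl1 were Ngly1, Nap1l2 and Il1rap, at Euclidean distances of 0.037, 0.044 and 0.064 on the centred log2 scale. Those closest to Esrp2 were Slc38a10, Zswim8 and Rpap1, at 0.027, 0.041 and 0.044.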

How the data were processed

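The authors mapped strand-specific paired-end reads to RefSeq transcripts of mm10 and the spike-ins with Bowtie2 2.1.0, estimated transcripts with RSEM 1.2.18 and deposited FPKM scaled with a TMM factor per library (0.928 to 1.125). RSEM divides reads that fit several transcripts of a gene, so single transcripts are less certain than their sum. The 16 columns were mapped through the sample titles, with 0 left over, and the RNA replicate of each vial comes from the paper's supplement. Of 33750 rows, 48 spike-ins and 1700047L14Rik were left out. Symbols were matched for 98.6% of 33702 RefSeq rows. The exons and GC content come from the GENCODE transcripts (GRCm38) paired with RefSeq rows (97.4% with a GC value, and all 34 of the 10 genes, of which 8 share a transcript as 4 pairs).

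The vials of an RNA sample were averaged and tested with limma 3.58.1 (R 4.3.3, eBayes with a trend) on log2(FPKM + 0.1), with Benjamini-Hochberg adjustment. Transcript shares used log2 of the transcript over the others of its gene, at a gene mean of at least 1 FPKM. Only genes or transcripts at 0 throughout were left out. The GC correction divided each library by its deviation in 20 GC bins over 13893 transcripts, and may also remove biological differences linked to GC. The fits were tested on simulated data. By the study's methods the replicates come from repeats of the procedure, so they were also paired as a block. Their differences at day 0 and day 4 correlated with r = 0.767 over 11602 genes (0.621 with only mixes 1 and 2 of day 0 replicate 2). The GC profile tended to be higher in replicate 1 on both days, so this correlation cannot show that the pairing is right. Python 3.11.15, numpy 2.4.6, pandas 2.3.3 and matplotlib 3.10.9 were used.

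The 10 genes and all lists were chosen with earlier results of these data known. Other splicing genes were named by rule: at most 3 a list, by size of the log2 difference, among those called without overlap of the libraries. Nearest patterns were named for the largest fitted rise and fall, and 6 markers were listed by name. Qki, in the list of tissue-restricted regulators, was not analysed here. Settings tried besides these were other pseudocounts (0.01 and 1), filters, variance models, vials, scalings, the block, the GC correction and each replicate left out. With 2 replicates a day, p-values rest on the spread between 2 RNA samples, with variances drawn by limma towards a trend over all genes. At day 0 this spread includes the difference between the vials of replicate 2. For Ptbp1 the SD of log2 values over the 4 vials was 0.93 there, against 0.06 in day 0 replicate 1.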

Additional observations from a re-analysis of the deposited data

Results flagged for a closer look

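Of 40 groups of 4 vials (10 genes in 4 RNA samples), 3 had a vial far from the other 3 by Dixon's test, which flags about 1 in 20 groups by chance. All 3 were of Srrm4: 0 FPKM in the mix 3 vial of day 0 replicate 1 beside 0.011 in the others, 0.019 FPKM in the mix 2 vial of day 4 replicate 1 beside 0.009 to 0.01, and 0.019 FPKM in the mix 4 vial of day 4 replicate 2 beside 0.01. These values are at the rounding step of the table, 0.01 FPKM. The test cannot flag 2 vials that stand apart together, as in day 0 replicate 2.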

How the results depend on the processing

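Besides the values reported, 20 settings were tried, 2 of them added after seeing the data. These took the vials with mixes 3 and 4 as day 0 replicate 2, or as the only day 0 sample. The setting with day 0 replicate 2 from its mix 1 and mix 2 vials was listed before them. It leaves out the vials that stood apart in GC profile, so its choice was not independent of these data. The reported counts were 6253 genes, 5321 transcripts and 0 shares called, with 4 of the 10 genes higher and 1 lower, 9 of their transcripts called and 0 of their shares. In the paired fit with the replicate block they were 10609 genes and 10050 transcripts, with 3 of the 10 lower and 16 transcripts called, and shares stayed at 0. With the GC correction 10553 genes, 10106 transcripts and 2 lower, and with both the correction and the block 11602, 10552, 3 lower and 15 transcripts. Taking day 0 replicate 2 from its mix 1 and mix 2 vials gave 12444 genes, 14423 transcripts and 2279 shares, with 3 lower, 16 transcripts and 11 shares of the 10 genes. Taking it from the mix 3 and mix 4 vials gave 1338 genes and 0 transcripts, with 0 higher, 0 lower and 0 transcripts. With these 2 vials as the only day 0 sample there were 3890 genes, 0 transcripts, 1 higher and 0 transcripts of the 10 genes. With only the mix 4 vials there were 1413 genes and 298 transcripts, with 0 higher, 0 lower and 0 transcripts. All 16 libraries with an estimated correlation gave 9429 genes, 10909 transcripts and 1892 shares, with 3 lower and 8 shares. The stricter filter left 4154 genes, the median ratio scaling 3 higher and 2 lower, a pseudocount of 1 and no variance trend 3 higher each, the mean of log2 values 5 transcripts, and a pseudocount of 1 gave 725 shares, 6 of them of the 10 genes. Leaving out 1 replicate gave 0 to 9215 genes, 0 to 7795 transcripts and 0 to 1553 shares, with 0 to 4 higher, 0 to 3 lower, 0 to 8 transcripts and 0 to 7 shares of the 10 genes. The lowest gene counts, of 0, came without either day 4 replicate, and the highest came without day 0 replicate 2. Where 1 sample is left, it is assumed to vary like the other day.

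The direction turned for Nova1 with only the mix 4 vials (-0.066), the GC correction (-0.35, with or without the block) and the 2 vials as day 0 (-0.08). Against these 2 vials it also turned for Esrp2 (0.33), Ptbp1 NM_001077363 (2.50), Mbnl2 NM_175341 (1.2), Rbfox2 NM_175387 (-0.27) and NM_001286419 (-0.24). NM_175387 turned without day 0 replicate 1 (-0.11, range -0.11 to 0.37 over the replicates left out) and, with only the mix 4 vials, NM_001286419 (-0.038) and NM_001110829 (-1.31). With only the mix 4 vials Celf2 NM_001110228 (-0.72) and NM_010160 (0.23), Mbnl1 NM_001253709 (-0.95) and Rbfox2 NM_001286418 (0.068) turned as well. For other settings the list is not complete for low transcripts. None of these turned values passed the test. Mbnl1, Celf2, Ptbp2, Mbnl2 and Rbfox2 were higher and Ptbp1 and Esrp1 lower in all 20 settings at the gene level. The adjusted p ran from 8.53e-08 to 0.156 for Mbnl1, 2.58e-06 to 0.27 for Celf2, 0.000142 to 0.312 for Ptbp2, 0.000142 to 0.28 for Mbnl2, 2.86e-08 to 0.21 for Esrp1, 0.000281 to 0.674 for Ptbp1 and 0.00173 to 0.612 for Esrp2. Fragment counts were not used, so low levels such as those of Srrm4 come without a counting error. Apart from these settings, the cause of the changes was not tested.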

Other observations

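A list of 20 genes known for isoforms under the control of such regulators was also tested. At the gene level 3 rose and 4 fell, beside 16% of all genes called higher and 14.5% called lower. Of their 58 transcripts tested for a change in share, none passed in the limma fit. An unadjusted p of at most 0.05 was found for 20 of the 58, beside 2120 of all 7312 transcripts tested. The smallest p was that of Numb NM_001136075, named after its values were seen. It made up 42.3% of Numb in day 0 replicate 1 and 42.6% in the mix 1 and mix 2 vials of day 0 replicate 2, but 11.5% in the mix 3 and mix 4 vials of that RNA, and 2.74% at day 4 (adjusted p = 0.074).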
